A study of Mus musculus with 4 samples.

Results

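The genes described here are 4 Janus kinase (JAK) genes, *Jak1*, *Jak2*, *Jak3* and *Tyk2*, and 5 genes of signal transducers and activators of transcription (STATs), *Stat2*, *Stat3*, *Stat5a*, *Stat5b* and *Stat6*. These 9 genes were taken by symbol from the 55401 genes listed for each library, and each symbol matched 1 row. Other genes of the STAT family were not analysed here. RNA-seq had been done on B220+ B cells sorted from the spleens of C57BL/6J mice. There were 2 libraries from NSD1B WT mice (Mb1-Cre+ NSD1+/+) and 2 from NSD1B KO mice (Mb1-Cre+ NSD1fl/fl), without treatment named in the labels. Both genotypes carried Mb1-Cre, a recombinase driven from the *Cd79a* locus in the B lineage, and in NSD1B KO it acts on floxed exons of *Nsd1*, which encodes a methyltransferase for lysine 36 of histone H3. The age and sex of the mice behind each library, and whether the 2 libraries of a genotype came from different mice, are not stated library by library. If they did not come from different mice, the p-values below measure technical spread only.

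JAKs are tyrosine kinases held on the inner tails of cytokine receptors. When a cytokine joins its receptor chains, the JAKs phosphorylate the receptor and the STATs that dock there, and the STATs pair, enter the nucleus and bind DNA. In B cells interleukin 4 acts mainly through STAT6, interleukin 21 mainly through STAT3, type I interferon through TYK2, JAK1 and STAT2, and STAT5 transmits the interleukin 7 signal in B cell precursors.

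*Nsd1* itself had 497 and 480 counts in NSD1B WT and 284 and 280 in NSD1B KO, a log2 fold change of -0.74 with an SE of 0.11 (edgeR's quasi-likelihood test, adjusted p = 8.08e-08). Counts on genes ranged from 6769118 to 7566834 per library. The summed level of 5 B cell markers was 12320 to 12547 counts scaled to library size (CPM) in NSD1B WT and 10887 to 11888 in NSD1B KO, and all 5 were counted in both genotypes. *Cd79b* (6825 and 8159 CPM) carried most of this sum and was not past the threshold described below, whereas *Pax5* was 9.76-fold, *Cd79a* 2.52-fold, *Ms4a1* 1.49-fold and *Ptprc* 1.41-fold lower in NSD1B KO. Marker lists of other cells were at different levels as well. The erythroid list, with 4 of 5 genes counted in NSD1B WT and 5 in NSD1B KO, was at 35.6 to 39.6 CPM in NSD1B WT and 1690 to 1944 in NSD1B KO, with *Alas2* at 0 in NSD1B WT. The myeloid list (6 of 7 genes counted in each genotype) was at 4570 to 4673 CPM in NSD1B WT and 5734 to 6082 in NSD1B KO, with *S100a9* at 0 in NSD1B WT and *S100a8* at 0 in NSD1B KO. *Lyz2* made up nearly all of it (4492 and 5717 CPM), while *Csf1r* was 14.7-fold, *Cd14* 11.6-fold and *Adgre1* 1.88-fold higher and *Itgam* 1.74-fold lower. The NK cell list (2 of 5 genes counted in each genotype) lay at 55.8 to 59.6 and 92.0 to 92.9 CPM, with *Ncr1* and *Gzma* at 0 throughout, *Prf1* at 0 in NSD1B WT and *Klrb1c* at 0 in NSD1B KO. The T cell list (5 of 7 counted in each genotype) was at 57.0 to 59.0 and 59.9 to 65.2 CPM, with *Cd4* and *Cd8a* at 0 in all libraries. Its genes moved apart, *Cd3g* 2.10-fold and *Cd3d* 1.91-fold higher, *Lck* 9.86-fold and *Trac* 2.45-fold lower. Plasma cell genes (3 of 5 counted in each genotype) were at 216 to 231 and 170 to 174 CPM, with *Sdc1* and *Tnfrsf17* at 0 in all libraries. *Jchain* was 1.45-fold and *Xbp1* 1.21-fold lower in NSD1B KO, while *Prdm1* was 3.02-fold higher. The list of plasmacytoid dendritic cells was at 141 CPM in both NSD1B WT libraries, with 3 of 4 genes counted, and at 212 to 219 in NSD1B KO, with 2 counted. *Siglech*, its defining gene, was at 0 in all libraries, and *Ccr9* was at 0 in NSD1B KO. The part of these lists in the changes of JAK and STAT genes was not tested. In bulk RNA, fewer cells of a type and less RNA per cell cannot be told apart.

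The question was how far the loss of NSD1 changed the RNA of this signalling machinery. In NSD1B KO, *Stat6* was 12.2-fold higher, *Tyk2* 1.82-fold and *Jak2* 1.35-fold higher, while *Stat5a* was 14.7-fold, *Stat5b* 1.59-fold and *Stat3* 1.32-fold lower. *Jak1* and *Stat2* were not past the threshold, which was a p below 0.05 after Benjamini-Hochberg adjustment over all genes tested, with a fold change above 1.2. *Jak3* had too few counts for the filter and was not tested. So 6 of the 8 tested members (75.0%) were past the threshold, 3 higher and 3 lower. Among all 11657 genes tested the share was 78.2%, with 37.1% higher and 41.1% lower, so the share of the JAK and STAT genes lay near the background. Under stricter limits, an adjusted p below 1e-05 with a log2 fold change beyond 0.5, *Stat6* and *Stat5a* remained, 2 of 8, against 57.2% of all genes tested. The median log2 fold change of the 8 genes was -0.08, against -0.10 for all genes tested. In all 8, the libraries of the genotypes did not overlap, as in 88.1% of all genes tested.

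**Figure D1:**
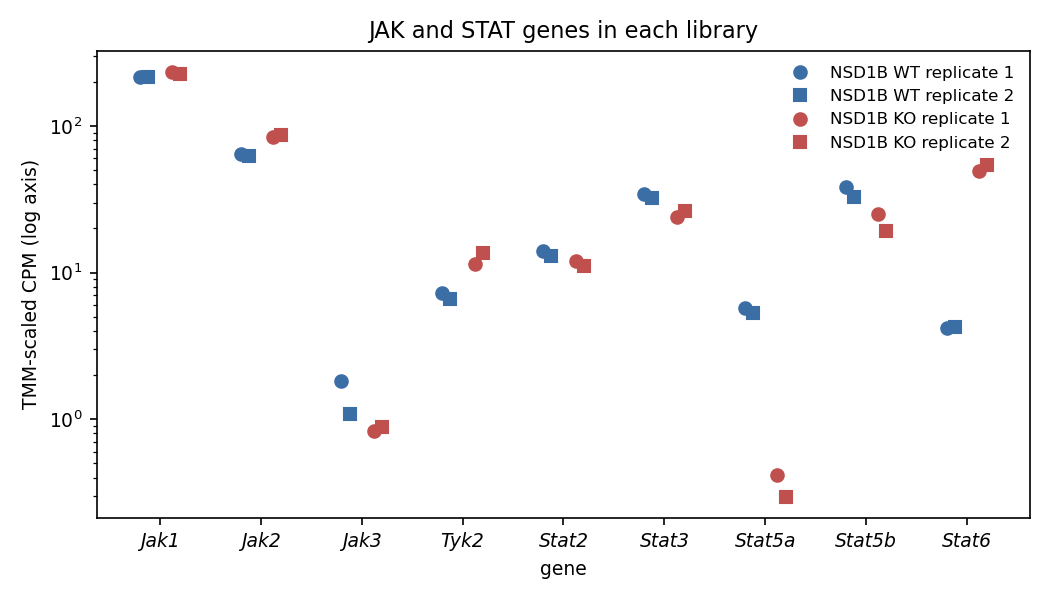
Level of each JAK and STAT gene in each library, as TMM-scaled CPM on a log axis. Blue points are NSD1B WT and red points NSD1B KO, and circles and squares mark replicates 1 and 2. *Stat6* rose from about 4.2 CPM to 49.6 and 53.7, and *Stat5a* fell from 5.74 and 5.33 CPM to 0.417 and 0.297.

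Among the kinases, *Jak1* was by far the most abundant and *Jak3* the least. *Jak1* (ENSMUSG00000028530.14, chromosome 4 from 101152367 to 101265282, minus strand, mm10) encodes the kinase shared by interferon, gp130 and common gamma chain receptors. It had 1546 and 1582 counts in NSD1B WT and 1676 and 1508 in NSD1B KO, which is 216 and 216 CPM against 233 and 224. The groups did not overlap, yet the difference was small, at a log2 fold change of 0.08 (95% interval -0.08 to 0.24, adjusted p = 0.37 by edgeR's quasi-likelihood test).

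*Jak2* (ENSMUSG00000024789.13, chromosome 19 from 29251828 to 29313080, plus strand) encodes the kinase of the interferon gamma, interleukin 3, interleukin 5 and erythropoietin receptors. It had 463 and 454 counts in NSD1B WT and 604 and 585 in NSD1B KO. Scaled to library size, both NSD1B KO libraries (83.9 and 87.0 CPM) were above both NSD1B WT libraries (64.8 and 62.1 CPM). Its log2 fold change was 0.43 with an SE of 0.10 (edgeR's quasi-likelihood test, adjusted p = 0.00015).

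*Tyk2* (ENSMUSG00000032175.11, chromosome 9 from 21104068 to 21131243, minus strand) encodes the kinase of type I interferon, interleukin 10 and interleukin 12 receptors. It was counted 52 and 48 times in NSD1B WT and 83 and 92 times in NSD1B KO, or 7.28 and 6.57 CPM against 11.5 and 13.7. Both NSD1B KO libraries were again the higher ones, and the log2 fold change was 0.86 with an SE of 0.25 (edgeR's quasi-likelihood test, adjusted p = 0.00181). The antisense gene 1700084C06Rik shares 554 nt of exon with *Tyk2*, 8.07% of its exon length, and had 0 counts in all libraries. No source used here gives the strand setting of the counting, so how reads in the shared stretch were assigned is not known.

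*Jak3* (ENSMUSG00000031805.17, chromosome 8 from 71676296 to 71690575, plus strand) encodes the kinase that binds the common gamma chain. Its counts were 13 and 8 in NSD1B WT and 6 and 6 in NSD1B KO. Over both libraries this was 21 against 12 counts, a ratio of NSD1B KO to NSD1B WT of 0.593 with an exact 95% interval of 0.266 to 1.26 that covers counting error only, so no difference was detectable at this depth. *Insl3* on the same strand shares 404 nt, or 7.55%, of the *Jak3* exon length and had 0 counts in all libraries. By contrast *Il2rg*, the gene of the common gamma chain to which JAK3 binds, was abundant in the same libraries. Per kb of exon it stood at 321 ± 23.3 CPM in NSD1B WT and 285 ± 11.4 in NSD1B KO, against 0.272 ± 0.0958 and 0.161 ± 0.00768 CPM per kb for *Jak3* (mean ± SD, n = 2).

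*Stat6* (ENSMUSG00000002147.18, chromosome 10 from 127642986 to 127660957, plus strand) encodes the factor that carries the interleukin 4 signal, which in B cells drives CD23 and class switching to IgE. It had 30 and 31 counts in NSD1B WT and 357 and 361 in NSD1B KO, or 4.2 and 4.24 CPM against 49.6 and 53.7. The 2 libraries of each genotype were close to each other and far from the other genotype. The log2 fold change was 3.61 (SE 0.19 and 95% interval 3.23 to 3.99, edgeR's quasi-likelihood test, adjusted p = 2.21e-22), the largest change among the 9 genes in the upward direction. *Nab2*, a corepressor gene whose exons overlap those of *Stat6* by 40 nt on the opposite strand, or 0.91% of the *Stat6* exon length, moved the same way. *Nab2* had 3 and 11 counts in NSD1B WT and 63 and 58 in NSD1B KO, at a log2 fold change of 3.14 with an SE of 0.42 (edgeR's quasi-likelihood test, adjusted p = 3.91e-09). *Nab2* was named after its values were seen, and it passed the filter on low counts only through NSD1B KO, where it is high. The part of the shared stretch in either value was not tested.

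Because *Stat6* and *Stat2* lie on the same chromosome, 609601 nt apart with 26 coding genes between them, and only *Stat6* was past the threshold, the 250 bases before the start site of each are shown. The sequences are those of RefSeq (GRCm38.p6, plus strand, 5′ to 3′). Capitals mark matches to STAT or interferon motifs, none of which was found in *Stat6*.
Stat6, chr10:127642736-127642985: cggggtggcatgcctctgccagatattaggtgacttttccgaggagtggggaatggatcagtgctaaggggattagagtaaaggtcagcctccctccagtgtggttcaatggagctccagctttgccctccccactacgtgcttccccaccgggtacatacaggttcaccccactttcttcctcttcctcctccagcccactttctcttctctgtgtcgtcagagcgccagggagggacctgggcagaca
Stat2, chr10:128270248-128270497: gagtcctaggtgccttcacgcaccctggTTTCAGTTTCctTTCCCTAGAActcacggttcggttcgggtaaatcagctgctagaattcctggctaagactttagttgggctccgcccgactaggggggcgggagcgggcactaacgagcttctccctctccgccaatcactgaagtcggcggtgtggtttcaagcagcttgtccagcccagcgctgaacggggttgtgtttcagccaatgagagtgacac

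The motifs were searched on both strands in 300-base windows, from 250 bases before to 50 bases after each start site, in 11 windows for the 9 genes. TTCNNNGAA, a STAT site with a 3-base spacer, was in 0 of the 11 windows and in 8.30% of 32851 windows of all genes. The form with a 4-base spacer, TTC and GAA around any 4 bases, was in 1 of the 11, that of *Stat2*, and in 6.95% of all. An interferon-stimulated response element, GAAA and GAAA around any 2 bases, was likewise found in *Stat2* alone among the 9 genes, and in 3.44% of all windows. In *Stat2* these matches start at positions -210 and -222 from the start site and do not overlap each other. The GC box GGGCGG was in 8 of the 11 windows, those of every gene but *Stat6* and 1 of the 2 each of *Stat5a* and *Stat5b*, and in 35.66% of all windows. The CCAAT box (CCAAT) was in 4 of the 11, those of *Jak1*, *Tyk2*, *Stat2* and *Stat3*, and in 37.41% of all windows. These matches describe the letters of the windows and say nothing of binding.

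*Stat5a*, *Stat5b* and *Stat3* stand side by side on chromosome 11, with no other coding gene between them, and all were lower in NSD1B KO. *Stat5a* (ENSMUSG00000004043.14, from 100859351 to 100885169, plus strand) encodes one of the pair of STAT5 proteins, which act after interleukin 7, interleukin 2, prolactin and growth hormone. It had 41 and 39 counts in NSD1B WT and 3 and 2 in NSD1B KO, or 5.74 and 5.33 CPM against 0.417 and 0.297. *Stat5a* was close to the limit of detection in NSD1B KO, and it passed the filter on low counts only through NSD1B WT, where it is high. Its log2 fold change was -3.88 with an SE of 0.55 (edgeR's quasi-likelihood test, adjusted p = 8.08e-09). From the 80 and 5 counts of the genotypes alone, the level in NSD1B WT was 15.4 times that in NSD1B KO, with an exact 95% interval of 6.34 to 48.8 for counting error only.

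*Stat5b* (ENSMUSG00000020919.11, from 100780731 to 100850724, minus strand) encodes the other STAT5 protein. It had 272 and 240 counts in NSD1B WT and 180 and 130 in NSD1B KO, or 38.1 and 32.8 CPM against 25 and 19.3. The groups did not overlap, although its libraries within a genotype spread more widely than those of *Stat6*. The log2 fold change was -0.67 with an SE of 0.15 (edgeR's quasi-likelihood test, adjusted p = 0.000107), and -0.30 (edgeR, adjusted p = 0.0588), no longer past the threshold, after correction for exon length and GC. *Stat5a* made up 13.1% and 14.0% of the counts on the pair in NSD1B WT and 1.64% and 1.52% in NSD1B KO. The Wilson 95% intervals of these shares, 9.80% to 17.3% and 10.4% to 18.5% against 0.559% to 4.71% and 0.416% to 5.36%, did not meet between genotypes. They cover counting error only, and libraries of a genotype differed by more than that, with a mean chi-square per gene of 2.99 in NSD1B WT and 3.86 in NSD1B KO where counting error alone gives 1.

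The paralogs share much of their sequence, which bears on how reads are counted. Over their principal coding sequences (GENCODE M21), *Stat5a* and *Stat5b* were 90.7% identical across 2343 aligned nt, whereas no other pair among the JAK genes or among the STAT genes exceeded 61.5%. The longest identical run was 324 nt, from coding base 571 to 894 in both genes. Of the 2230 windows of 150 nt, the read length, in the *Stat5a* coding sequence, 175 also occur in *Stat5b*. A read lying wholly inside such a window has no unique place by its own sequence. Reads were paired, so a mate outside the shared sequence can still place it, and mapping was not tested. The first 150 bases of the identical run, 1 read length, are shown because a read of them matches both genes.
Stat5a and Stat5b, shared run: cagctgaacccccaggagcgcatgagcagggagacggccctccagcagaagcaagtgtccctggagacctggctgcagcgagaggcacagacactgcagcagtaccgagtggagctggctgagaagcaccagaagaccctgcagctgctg

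The last 90 coding bases, before the stop codon, are where the proteins part. There the longest run common to both ends is 18 nt, marked by capitals, and after it the ends differ.
Stat5a, coding end: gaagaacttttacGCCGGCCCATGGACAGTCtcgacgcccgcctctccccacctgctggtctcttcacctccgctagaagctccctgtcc
Stat5b, coding end: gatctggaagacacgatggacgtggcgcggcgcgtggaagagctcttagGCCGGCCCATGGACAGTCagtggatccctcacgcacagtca
With the counts of the pair summed to 313 and 279 in NSD1B WT and 183 and 132 in NSD1B KO, the log2 fold change was -0.86 with an SE of 0.15 (edgeR's quasi-likelihood test, adjusted p = 1.02e-06). This sum does not depend on how counted reads were divided between the paralogs, though reads without a unique place were not counted.

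*Stat3* (ENSMUSG00000004040.16, from 100885098 to 100939540, minus strand) encodes the factor for interleukin 6, interleukin 10 and interleukin 21. It had 244 and 236 counts in NSD1B WT and 173 and 176 in NSD1B KO, or 34.1 and 32.3 CPM against 24.0 and 26.2. Both NSD1B KO libraries lay below both NSD1B WT libraries, and the log2 fold change was -0.40 with an SE of 0.15 (edgeR's quasi-likelihood test, adjusted p = 0.0112). This call was lost without NSD1B WT replicate 1 (-0.33, adjusted p = 0.0966) and without NSD1B KO replicate 1 (-0.35, adjusted p = 0.0524, both by edgeR). It was also lost by the Wald test of DESeq2 (-0.39, adjusted p = 0.109) and after correction for exon length and GC (-0.22, adjusted p = 0.155 by edgeR). The 3′ ends of *Stat3* and *Stat5a* overlap by 72 nt of exon on opposite strands, 0.76% of the *Stat3* exon length, so counts in that stretch are uncertain.

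*Stat2* (ENSMUSG00000040033.16, chromosome 10 from 128270559 to 128292849, plus strand) encodes the STAT that joins IRF9 in the complex induced by type I interferon. It was counted 101 and 94 times in NSD1B WT and 86 and 74 times in NSD1B KO, or 14.1 and 12.9 CPM against 12 and 11.0. The libraries did not overlap but lay close together, and the log2 fold change was -0.23 (95% interval -0.67 to 0.21, adjusted p = 0.329 by edgeR's quasi-likelihood test). After correction for exon length and GC the sign turned, to 0.10.

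**Figure D2:**
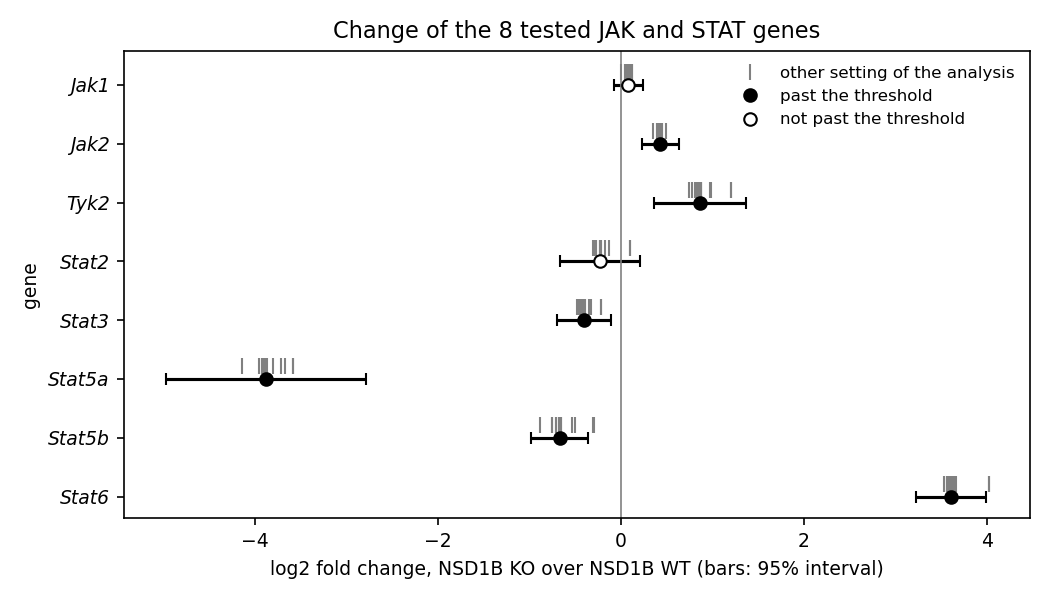
Log2 fold change of NSD1B KO over NSD1B WT for the 8 tested JAK and STAT genes, with 95% intervals from edgeR. Filled points were past the threshold, open points (*Jak1*, *Stat2*) were not, and grey ticks above each point are the values under other settings of the analysis. *Stat6* at 3.61 and *Stat5a* at -3.88 stand far from the other genes, which lie between -0.67 and 0.86.

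Levels were compared between genes as CPM per kb of exon. In NSD1B WT the order from the highest was *Jak1* (29.9 ± 0.00539), *Jak2* (12.6 ± 0.378), *Stat5b* (6.40 ± 0.668), *Stat3* (3.49 ± 0.138), *Stat2* (2.28 ± 0.152), *Tyk2* (1.01 ± 0.0732), *Stat6* (0.959 ± 0.00679), *Stat5a* (0.776 ± 0.0399) and *Jak3* (0.272 ± 0.0958 CPM per kb, mean ± SD, n = 2). The neighbours *Tyk2* and *Stat6* overlapped between libraries, and other neighbours did not. In NSD1B KO *Stat6* moved from place 7 to place 3, at 11.7 ± 0.650 CPM per kb, behind *Jak1* (31.6 ± 0.857) and *Jak2* (17.0 ± 0.425). It was followed by *Stat5b* (4.0 ± 0.726), *Stat3* (2.63 ± 0.157), *Stat2* (1.94 ± 0.114), *Tyk2* (1.84 ± 0.221), *Jak3* (0.161 ± 0.00768) and *Stat5a* (0.0501 ± 0.0119 CPM per kb). Here *Stat2* and *Tyk2* overlapped. With the length of the longest transcript instead, 7 of the 9 places stayed in each genotype. *Stat6* and *Stat5a* traded places in NSD1B WT, and so did *Stat2* and *Tyk2* in NSD1B KO.

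Together the 4 JAK genes summed to 43.8 ± 0.542 CPM per kb in NSD1B WT and 50.6 ± 0.204 in NSD1B KO, and the 5 STAT genes to 13.9 ± 0.992 and 20.4 ± 0.0442. Within the JAK sum the order of the genes was the same in both genotypes. *Jak1* held 68.3% ± 0.856 in NSD1B WT and 62.5% ± 1.44 in NSD1B KO, and *Jak2* 28.8% ± 0.507 and 33.6% ± 0.974. Within the sum of these 5 STAT genes the order differed. *Stat5b* held the largest share in NSD1B WT, 46.0% ± 1.53, and 19.7% ± 3.53 in NSD1B KO. *Stat6* held 6.92% ± 0.542 in NSD1B WT and 57.6% ± 3.32 in NSD1B KO. The share of *Stat3* was 25.1% ± 0.797 and 12.9% ± 0.801, and that of *Stat5a* was 5.59% ± 0.112 and 0.246% ± 0.0577. These shares depend on each other, were not tested, and do not cover STAT genes outside the 5.

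**Figure D3:**
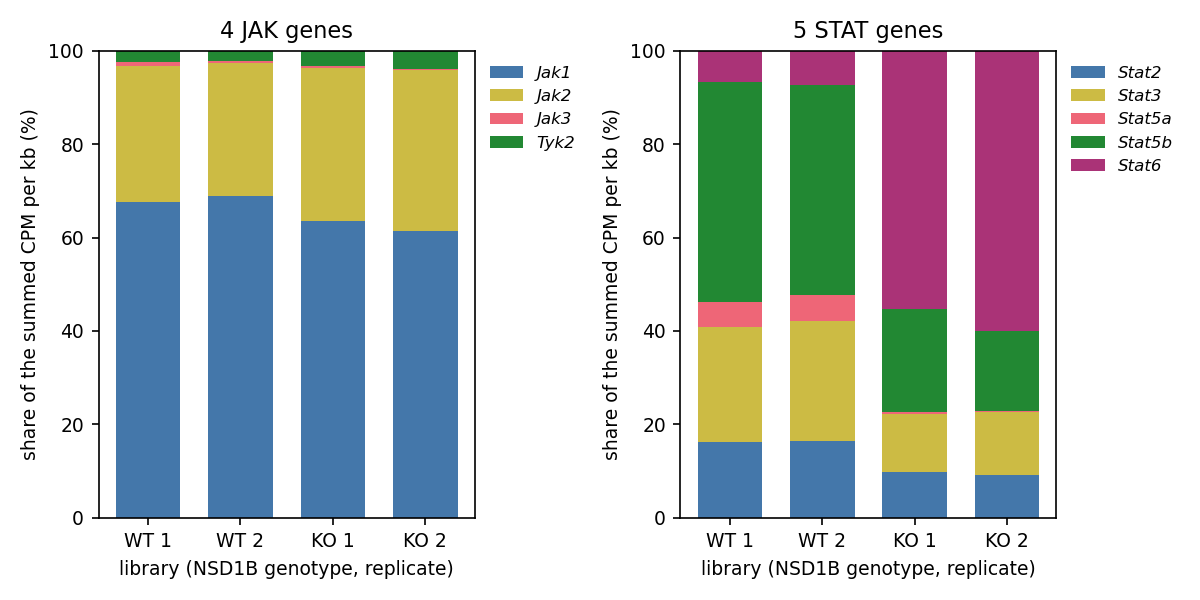
Share of each gene in the summed CPM per kb of the 4 JAK genes (left) and of the 5 STAT genes (right), in percent, for each library. In the right panel *Stat6* held 6.53% and 7.30% in the NSD1B WT libraries and 55.3% and 60.0% in the NSD1B KO libraries.

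Of 72 other genes of the pathway, in 5 lists, 55 could be tested, and 20 were higher and 27 lower in NSD1B KO. The share past the threshold, 85.5%, compares with 78.2% of all genes tested, and the median log2 fold change was -0.36, against -0.10. Receptor chains of cytokines that signal through JAKs were split, 7 higher and 8 lower of 19. *Il2ra*, a chain of the high-affinity interleukin 2 receptor, had 0 counts in NSD1B WT and 93 and 89 in NSD1B KO, at least 63.0-fold higher (adjusted p = 8.19e-16 by edgeR). *Il15ra* was higher as well, with 27 and 24 counts in NSD1B WT and 172 and 150 in NSD1B KO, 2.71 on the log2 scale with an SE of 0.25 (edgeR, adjusted p = 6.78e-14). *Il4ra*, the receptor chain upstream of STAT6, went the other way from *Stat6*. It had 180 and 166 counts in NSD1B WT and 40 and 34 in NSD1B KO, at a log2 fold change of -2.17 with an SE of 0.22 (edgeR's quasi-likelihood test, adjusted p = 3.38e-12). *Il21r*, whose signal STAT3 carries, had 43 and 75 counts in NSD1B WT and 0 in NSD1B KO, at least 37.9-fold lower, and *Il2rb* had 21 and 22 against 0, at least 13.8-fold lower. *Il2rg* was not past the limit on the fold change, at a log2 fold change of -0.17 with an SE of 0.08 (edgeR, adjusted p = 0.0366). Genes at 0 in a genotype, here and in the other lists, passed the filter on low counts only through the genotype where they are high, and 2203 of the 11657 genes tested were at 0 in 1 genotype. These lower limits were computed against 3 counts over the 2 libraries of the genotype at 0 and cover counting error only.

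Of 12 tested inhibitors of the pathway, 4 were higher and 5 lower, or 75.0% past the threshold against 78.2% of all genes tested. *Socs3*, which blocks receptors of the gp130 type, had 56 and 56 counts in NSD1B WT and 0 in NSD1B KO, at least 36.0-fold lower. *Socs7* had 157 and 105 counts against 5 and 9, a log2 fold change of -4.15 with an SE of 0.36 (edgeR, adjusted p = 1.04e-14), and it too passed the filter only through NSD1B WT. *Socs6* rose, from 38 and 30 counts to 417 and 337, at 3.52 on the log2 scale with an SE of 0.19 (edgeR, adjusted p = 3.36e-22), and so did *Ptpn11*, the gene of the phosphatase SHP2, at 1.43 with an SE of 0.13 (edgeR, adjusted p = 2.16e-14). *Socs1* and *Cish*, both induced by STATs in many cells, had 0 counts in all 4 libraries.

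All 8 tested adaptors and partners were past the threshold, 2 higher and 6 lower, where 78.2% of all genes tested were. *Irf9*, the DNA-binding partner of STAT2, had 668 and 753 counts in NSD1B WT and 312 and 296 in NSD1B KO, at a log2 fold change of -1.17 with an SE of 0.11 (edgeR's quasi-likelihood test, adjusted p = 4.75e-14). *Stam2* and *Shc1* had 36 and 50, and 44 and 52 counts in NSD1B WT and 0 in NSD1B KO, at least 27.6-fold and 30.8-fold lower. *Crebbp*, the gene of a histone acetyltransferase that STATs recruit, rose by 1.58 on the log2 scale, and *Nmi*, whose product binds STATs, by 0.74 (standard errors 0.13 and 0.09, adjusted p = 8.75e-16 and 2.97e-10 by edgeR).

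Of 11 tested targets of STAT5, STAT3 or STAT6, 5 were higher and 5 lower, and of all genes tested 37.1% were higher and 41.1% lower. *Fcer2a*, the gene of CD23 and a target of STAT6, had 134 and 172 counts in NSD1B WT and 0 in NSD1B KO, while *Stat6* was higher there. By flow cytometry, the study found follicular B cells, which it gated as CD23+, reduced but still present in spleens of NSD1B KO mice. The RNA counts therefore do not show that CD23 protein was absent, and the part of that reduction in the *Fcer2a* counts was not tested. *Batf*, which acts in class switching, had 153 and 130 counts against 0, at least 90.9-fold lower. *Bcl6*, the gene of a transcriptional repressor, rose by 1.61 on the log2 scale with an SE of 0.26 (edgeR, adjusted p = 3.14e-07), *Pim1* by 1.2 (0.21, 9.07e-07) and *Ccnd3* by 2.64 (0.12, 1.52e-24). Of 5 tested targets of the STAT2 complex, 2 were higher and 3 lower. *Ifit3* had 160 and 175 counts in NSD1B WT and 0 in NSD1B KO, at least 108-fold lower, and *Isg15* had 19 and 20 against 0. *Oas1a* had 0 counts in NSD1B WT and 218 and 156 in NSD1B KO, at least 129-fold higher, and *Usp18* rose by 1.66 on the log2 scale with an SE of 0.24 (edgeR, adjusted p = 1.64e-08).

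**Figure D4:**
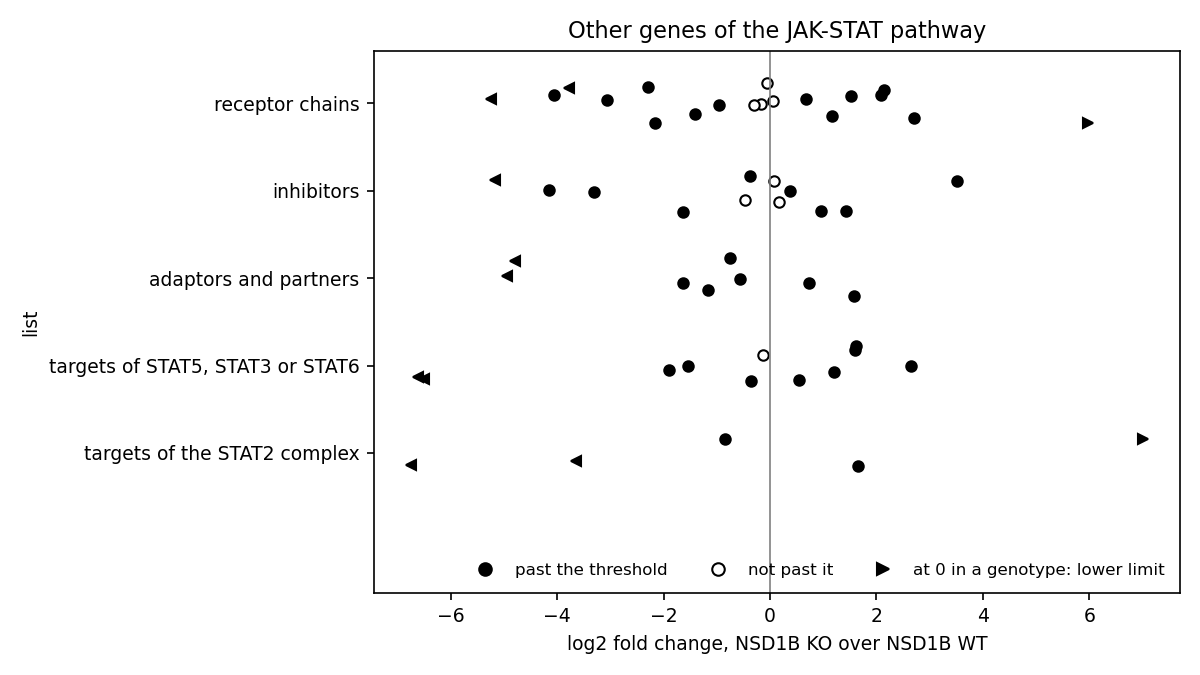
Log2 fold change of NSD1B KO over NSD1B WT for 55 tested genes of the JAK-STAT pathway in 5 lists. Filled points were past the threshold and open points were not. Triangles are genes with 0 counts in a genotype, placed at the lower limit of their change, and higher and lower genes stand side by side in every list.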

How the data were processed

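RNA-seq had been done on 4 libraries, and the values the authors deposited are raw counts of reads for each gene. Per the methods of the study, paired-end reads of 150 bp were mapped to mm10 with Bowtie2. Which program counted reads, with which strand setting and annotation, is not given in the sources used here. FPKM from Cufflinks was not used. Groups and replicate numbers were taken from the sample titles.

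Reads on no gene (44.28% to 44.55% of counted reads), ambiguous reads and reads without a unique place stayed out of library sizes. Counts were scaled by TMM, filtered with filterByExpr (minimum count 10, minimum total 15), and tested by the quasi-likelihood test of edgeR 4.0.16 in R 4.3.3 over 11657 genes, with Benjamini-Hochberg adjustment. Levels are TMM-scaled CPM, and CPM per kb used the union of exons in GENCODE M21, which matched 99.5% of identifiers and all 9 members. Alternatives used DESeq2 1.42.0, limma 3.58.1, other scalings and filters, each library left out, a replicate block and a loess correction (span 0.5) for exon length and GC content. Genes were named by a rule: all members, 8 usual readouts, and in each pathway list the 2 highest and 2 lowest called genes and those at 0 in a genotype with at least 50 counts in the other. The members and lists were chosen with earlier results of these data known. Beyond the marker lists given, 2 genes are not reported here.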

Additional observations from a re-analysis of the deposited data

How the results depend on the processing

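The count of 6 JAK and STAT genes past the threshold stayed between 4 and 6 under all other settings except stricter limits. With limits of 1e-05 on the adjusted p and 0.5 on the log2 fold change it was 2, *Stat6* and *Stat5a*, where 57.2% of all genes tested passed. Each library left out in turn gave 5 to 6. *Jak2*, *Tyk2*, *Stat5a* and *Stat6* kept direction and call under every setting that could test them apart from the stricter limits, which *Jak2* and *Tyk2* missed, at 0.35 to 0.49, 0.74 to 1.2, -4.14 to -3.59 and 3.53 to 4.02 on the log2 scale. The range of *Stat5a* leaves out its sum with *Stat5b*, at -0.86, and it was not tested with a filter of 1 CPM in all 4 libraries. Besides the stricter limits, *Stat3* lost its call under 5 settings and *Stat5b* under 1. Removing the trend with exon length and GC content moved the median of all genes from -0.10 to 0.08. It left 3 of the 8 tested JAK and STAT genes higher and 1 lower, or 3 and 2 with the replicate block. Of 11647 genes tested, 4756 were then higher and 4232 lower, or 4680 and 4165 with the block, a larger share than among the members. Relative to the median of all genes, *Stat3* was at -0.30 with and without the correction, and *Stat5b* at -0.38 with it and -0.57 without. *Stat2* turned to 0.10 with the correction, alone and with the replicate block. Without that correction, the replicate number as a block left 6 genes past the threshold. The labels do not say whether libraries with the same number were paired. The difference between replicates 1 and 2 correlated with r = 0.0825 between genotypes, across 6754 genes that are not independent. This single correlation cannot decide whether they were paired. The pathway count of 47 of 55 tested genes ranged from 34 of 42 to 50 of 63, so the number tested changed as well. The 34 came from the 1 CPM filter, which left 8334 genes in all, 2855 higher and 2991 lower. The 50 came from a filter of 1 count in any library, which left 16028 genes, 4627 higher and 5108 lower. Stricter limits gave 39 of 55. Depth limited *Jak3*, which was not past the threshold in any of the 5 settings that tested it (adjusted p from 0.339 to 0.555).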

Other observations

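The tested genes whose levels over the 4 libraries were nearest to those of *Stat6*, by Euclidean distance of log2 CPM with 0.5 added, were *Dpp7* (distance 0.190), *Ptpn4* (0.269) and *Leng1* (0.269). *Dpp7* had 31 and 32 counts in NSD1B WT and 344 and 320 in NSD1B KO. Nearest to *Stat5a* were *Gm26916* (0.106), *Bcas1* (0.251) and *Fastk* (0.333), and *Gm26916* had 38 and 40 counts in NSD1B WT and 3 and 2 in NSD1B KO.

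Further genes of the pathway, chosen after their values were seen, differed by large amounts. *Il7r*, the receptor chain upstream of STAT5 in B cell precursors, had 62 and 63 counts in NSD1B WT and 5 and 2 in NSD1B KO. *Il9r* had 261 and 238 counts against 29 and 28. *Ifngr1*, the interferon gamma receptor chain that binds JAK1, had 499 and 517 counts in NSD1B WT and 2236 and 2076 in NSD1B KO, while *Ifnar1*, the type I interferon chain that binds TYK2, had 209 and 188 against 43 and 35. *Ptpn1*, the gene of a phosphatase that acts on JAK2 and TYK2, had 346 and 383 counts in NSD1B WT and 33 and 38 in NSD1B KO.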
